A study of Mus musculus with 12 samples.

Results

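The histone marks H3K27ac and H3K4me3 were read at 10 genes of the marrow stroma in mouse mesenchymal stem cells (MSCs) kept at 2% oxygen (hypoxia) or 21% oxygen (normoxia). The genes encode the haematopoietic niche factors Cxcl12, Kitl and Vcam1, the receptors Lepr, Pdgfra and Pdgfrb, the surface and filament markers Ly6a, Thy1 and Nes, and the transcription factor Ebf3. They were chosen by name from the 21938 protein-coding genes of the annotation, at a time when peak calls of this data set were known, and the H3K27ac interval at Cxcl12 was selected on its calls, as the one nearest to that gene among those called at a single oxygen level. Every peak that touched a gene body or the 20000 bp on either side (the window of that gene) was taken, which gave 23 of the 22555 intervals of the data set.

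H3K27ac is acetylation of lysine 27 of histone H3, a mark of active promoters and enhancers, and H3K4me3 is trimethylation of lysine 4, found mainly at promoters. Both were profiled by ChIP-seq, which sequences the DNA bound to histones that carry the mark. The labels call the cells bone-marrow MSCs from mice aged 3 to 5 months. The mice were wild-type male C57BL/6N. The methods describe growth from bone fragments in hypoxia, a sort for cells with Sca-1 (the Ly6a product) and CD140a (the Pdgfra product) and without CD45 and Ter-119, and only then a split between the oxygen levels, whereas the labels place the sort at the end of a culture in hypoxia or normoxia. Both groups share the sort, and 2 of the 10 genes encode its positive markers. The 12 libraries formed 6 groups of 2, namely each mark and an input at each oxygen level. The peak lists number 4, one for every pairing of mark and oxygen level, and each pools its 2 libraries. They hold positions and a score but no read counts, so the sequencing depth and the spread between replicates are unknown, no difference below has a replicate check, and no test between the oxygen levels was possible.

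Stromal cells around the marrow vessels hold blood stem cells in place and supply them with growth factors. CXCL12 is a chemokine that retains cells bearing its receptor CXCR4, KIT ligand (the product of Kitl, also called stem cell factor) sustains cells bearing KIT, and VCAM1 binds the integrin of which Itga4 encodes a chain. Lepr encodes the leptin receptor, which marks the stromal cells that make most CXCL12 and KIT ligand in adult marrow. Ebf3 is a transcription factor that maintains these cells. PDGFRA and PDGFRB are receptors for platelet-derived growth factors, nestin (Nes) is an intermediate filament protein of perivascular cells, and Sca-1 and Thy-1 are surface proteins used to sort stromal cells. A transcription start with both marks is typical of an expressed gene. CpG-rich promoters often carry H3K4me3 whether or not the gene is expressed.

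The sequence before the start is given first for the 6 genes found in the RefSeq promoter table (GRCm38.p6, the same build as mm10), because the genes fall into groups by promoter calls and these promoters differ in CpG content. The table held no entry for Vcam1, Ly6a and Thy1, and Pdgfrb was not looked up. Each line reads 5′ to 3′ in the direction of the gene and holds the bases of the promoter window that lie before the first annotated start of the gene, and the capitals mark each CpG. Cxcl12, Pdgfra and Ebf3 carried both marks at the start, whereas Kitl, Lepr and Nes carried H3K4me3 alone.
Cxcl12, chr6:117168285-117168534, plus strand: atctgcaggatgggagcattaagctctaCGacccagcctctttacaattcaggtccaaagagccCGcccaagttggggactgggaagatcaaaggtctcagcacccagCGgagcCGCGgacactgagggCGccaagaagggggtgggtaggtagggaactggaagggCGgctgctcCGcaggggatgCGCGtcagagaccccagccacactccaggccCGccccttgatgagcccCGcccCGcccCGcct
Kitl, chr10:100015571-100015629, plus strand: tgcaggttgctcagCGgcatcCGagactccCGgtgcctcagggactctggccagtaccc
Lepr, chr4:101717157-101717403, plus strand: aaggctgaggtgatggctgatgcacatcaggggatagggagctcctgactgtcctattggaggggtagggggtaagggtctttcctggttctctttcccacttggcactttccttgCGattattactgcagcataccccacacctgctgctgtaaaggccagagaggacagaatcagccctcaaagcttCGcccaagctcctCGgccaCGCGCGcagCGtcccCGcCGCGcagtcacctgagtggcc
Nes, chr3:87970843-87971077, plus strand: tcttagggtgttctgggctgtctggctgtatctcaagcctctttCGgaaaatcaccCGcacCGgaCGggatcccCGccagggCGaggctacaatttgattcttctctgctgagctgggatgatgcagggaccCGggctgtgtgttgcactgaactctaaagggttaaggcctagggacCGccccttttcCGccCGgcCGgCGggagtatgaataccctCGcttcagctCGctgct
Pdgfra, chr5:75152001-75152250, plus strand: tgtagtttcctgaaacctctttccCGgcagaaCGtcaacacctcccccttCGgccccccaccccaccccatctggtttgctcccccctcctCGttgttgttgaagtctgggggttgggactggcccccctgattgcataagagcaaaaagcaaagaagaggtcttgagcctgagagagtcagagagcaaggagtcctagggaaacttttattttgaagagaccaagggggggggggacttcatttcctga
Ebf3, chr7:137314446-137314695, minus strand: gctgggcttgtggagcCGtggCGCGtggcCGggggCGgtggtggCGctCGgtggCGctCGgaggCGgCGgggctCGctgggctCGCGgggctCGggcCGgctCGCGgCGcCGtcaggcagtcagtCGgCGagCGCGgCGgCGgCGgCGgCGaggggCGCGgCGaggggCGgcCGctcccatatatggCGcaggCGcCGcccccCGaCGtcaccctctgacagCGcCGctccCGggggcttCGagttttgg

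Over the full promoter window of 300 bases (250 before and 50 after the RefSeq start), the 3 genes with H3K4me3 alone had 28 CpGs (Kitl), 18 (Lepr) and 18 (Nes). All were CpG-rich. For Kitl the RefSeq start (100015821) lay inside the gene as annotated from 100015630, so most of its window was gene sequence. The 59 bases before the gene held 3 CpGs. The median was 7 over all 32851 RefSeq promoters, 24 over the 8835 with both marks in hypoxia, 20 over the 5250 with H3K4me3 alone and 3 over the 17863 with neither. The genes with both marks were not alike. Ebf3 had 46 CpGs, more than most promoters (percentile 98.5), Cxcl12 had 20, and Pdgfra had 5 (percentile 40.8). The low count of Pdgfra holds for this window alone. The whole called interval over its start had 37.7 CpGs per kb, against 36 at Cxcl12 and 67.1 at Ebf3. The core of the hypoxia response element, searched as ACGTG and GCGTG on both strands, matched once in the windows of Kitl, Lepr and Ebf3 (GCGTG each time) and had no match in those of Cxcl12, Pdgfra and Nes. Of all promoters, 19.6% held ACGTG and 32.4% held GCGTG. The facing half-sites of Ebf factors, searched as CCCNNGGG, matched once, at Ebf3 itself. They matched in 13.7% of all promoters and in 18.9% of those with both marks in hypoxia. These matches describe letters and not binding.

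At the transcription starts, the call of neither mark differed between the oxygen levels for any of the 10 genes when a peak within 1000 bp of a start was counted. H3K4me3 was called at 9 of the 10 in hypoxia, against 58.9% of all protein-coding genes, and at the same 9 in normoxia, against 58.9%. H3K27ac was called at 7 in hypoxia, against 37.6% of all genes, and at the same 7 in normoxia, against 37%. Unchanged calls were the rule among all genes. H3K27ac was called at a start of 8254 genes in hypoxia and 8121 in normoxia, and 8103 had it in both lists. Nothing particular to the 10 genes is therefore read from their unchanged calls. In hypoxia, Cxcl12, Vcam1, Pdgfra, Pdgfrb, Thy1 and Ebf3 carried both marks (6 of 10, against 36.5% of all genes). Kitl, Lepr and Nes carried H3K4me3 alone (3 of 10, against 22.5%), and Ly6a carried H3K27ac alone (1 of 10, against 1.16%). When the lowest-scoring 25% of each list was left out, Lepr and Nes lost H3K4me3 at both oxygen levels, so that Kitl was the 1 gene left with H3K4me3 alone, and Vcam1 lost H3K27ac in normoxia and kept it in hypoxia. Since the genes were picked as genes of this cell type with calls known, these counts describe them and are not a test of the list.

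**Figure D1:**
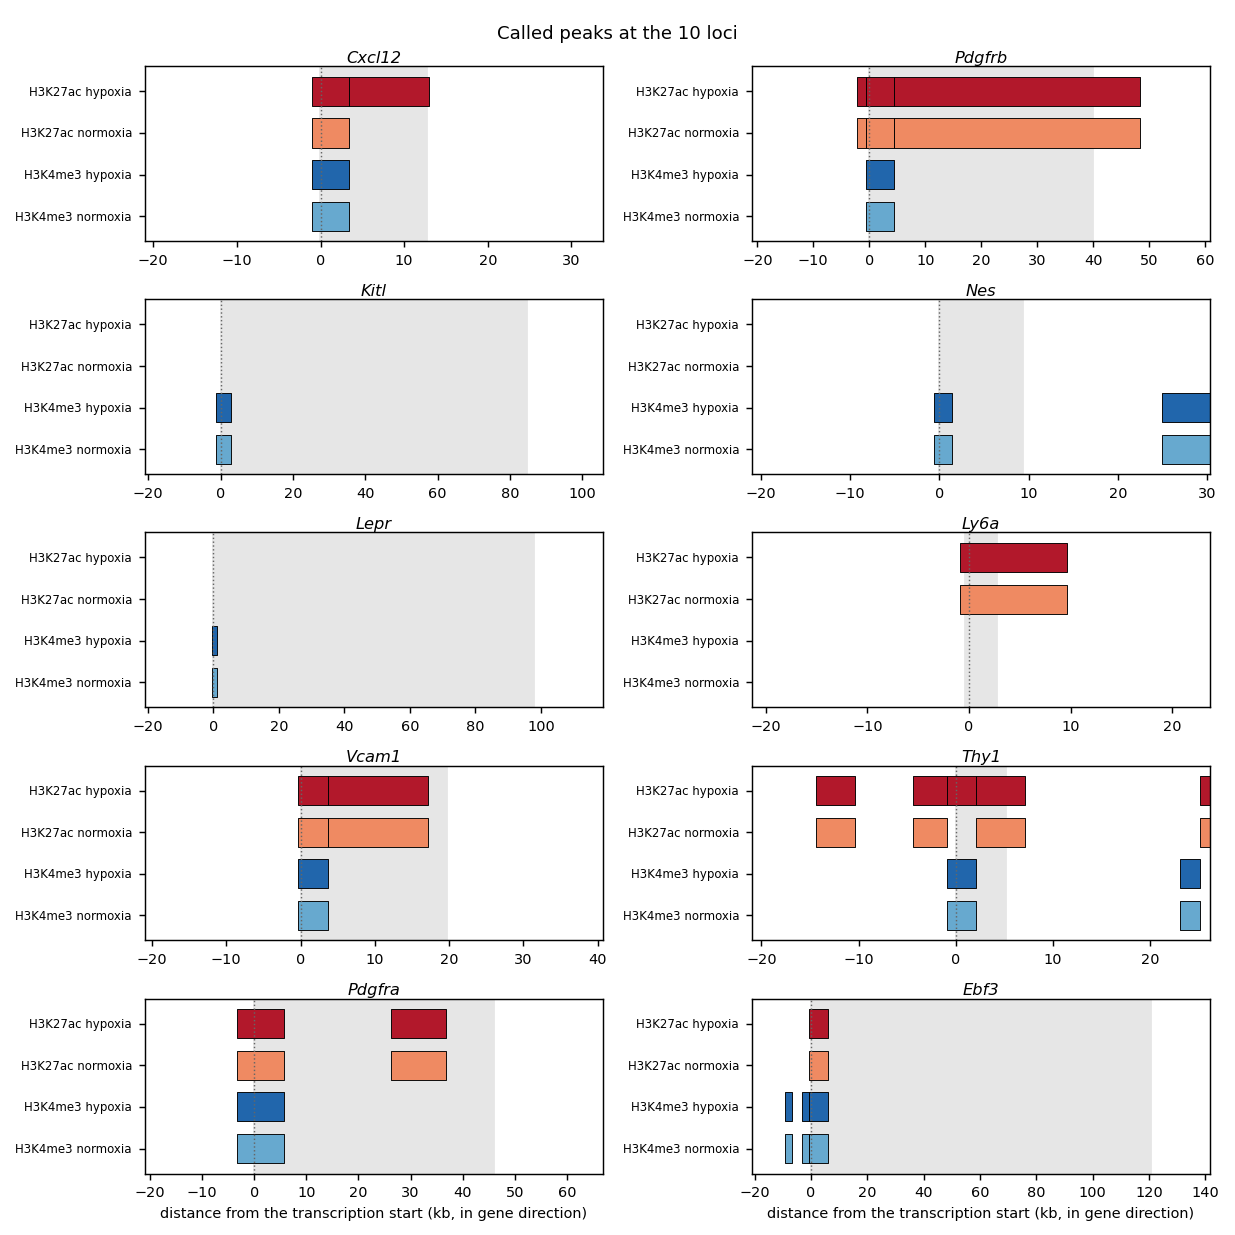
Peaks called at the 10 loci, against distance from the main transcription start in kb, in the direction of the gene. Grey shading is the gene body, each bar is 1 called interval of the list named at its left, black lines divide touching intervals, and panels end about 1 kb past the window. The hypoxia and normoxia rows differ at Cxcl12, where an H3K27ac interval of 9.5 kb was called in hypoxia alone, and at Thy1, where one of 3 kb over the start was.

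Cxcl12 (chromosome 6, 117168535 to 117181367, plus strand, mm10) was the niche factor with a difference. Its start lay in an interval of 4.5 kb from 117167501 to 117172000 that carried H3K27ac and H3K4me3 in all 4 lists and covered exons 1 and 2 of the 4 exons of the main transcript. The H3K27ac score of this interval was 131 in hypoxia and 127 in normoxia, which are percentiles 66.4 and 65.6 of their lists. Scores ran from 50 to 160 or stood at 1000, their definition is not stated, and they are read here only by rank within a list. The next interval, from 117172001 to 117181500, touched the first one and carried H3K27ac in hypoxia alone. It spanned 9.5 kb, from intron 2 over exons 3 and 4 to 133 bp past the end of the gene, and so held the whole 3′ part of Cxcl12, with no H3K4me3. The H3K27ac stretch at Cxcl12 was thus 14 kb long in hypoxia and 4.5 kb in normoxia, a ratio of 3.11.

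The score of the hypoxia-only interval at Cxcl12 was 52. This is close to the lowest score of the list, 50, at percentile 2.81 of the hypoxia list and percentile 19.0 of the 589 hypoxia-only intervals, while its width was at percentile 89.6 of them. It was thus a wide interval with a low score. The next condition-specific H3K27ac interval in either direction was normoxia-only and lay 700 kb away, from 117881501 to 117883000, with Hnrnpf as the nearest start. GC content was 53.3% in the start interval and 48.6% in the hypoxia-only interval, with 36 and 15.6 CpGs per kb. The sequence at the border between them is shown because it is where the calls of the oxygen levels part. It lies within intron 2, outside the exons of all annotated transcripts, and the capitals mark the bases called in hypoxia alone. Borders fall on multiples of 500 bp in these lists, and the methods give bins wider than this step. The place of the border is thus known less well than to 500 bp.
Cxcl12 boundary, chr6:117171851-117172150, plus strand: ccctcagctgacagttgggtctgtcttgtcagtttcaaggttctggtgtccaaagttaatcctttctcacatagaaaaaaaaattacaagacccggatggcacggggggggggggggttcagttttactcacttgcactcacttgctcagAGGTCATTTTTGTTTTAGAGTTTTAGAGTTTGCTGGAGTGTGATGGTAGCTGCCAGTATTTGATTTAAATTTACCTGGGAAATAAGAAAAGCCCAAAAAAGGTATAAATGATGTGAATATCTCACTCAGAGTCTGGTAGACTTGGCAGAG

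Kitl (chromosome 10, 100015630 to 100100416, plus strand), another niche factor among the 10, had a single peak in its window of 124787 bp. This was an H3K4me3 interval of 4 kb from 100014501 to 100018500 over the start and exon 1, with a score of 132 in both lists (percentile 62.8 in each). No H3K27ac peak was called at either oxygen level anywhere in the gene body or the flanks.

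Vcam1 (chromosome 3, 116109949 to 116129688, minus strand) carried H3K27ac over most of its length at both oxygen levels. The start lay in an interval of 4 kb (116126001 to 116130000) with both marks, and H3K27ac went on for another 13.5 kb over exons 3 to 8 of the 9 exons. The positions did not differ between the oxygen levels, but the scores moved in opposite directions. At the start the H3K27ac score was 82 in hypoxia and 53 in normoxia (percentiles 32.1 and 4.63), whereas over the gene body it was 126 and 1000 (percentiles 58.5 and 90.6). In normoxia the call at the start was thus among the lowest of its list.

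Of the 3 receptors, Lepr (chromosome 4, 101717404 to 101815352, plus strand) had the lowest score. Its only peak was an H3K4me3 interval of 1.5 kb at the start (101717001 to 101718500), with a score of 58 in both lists, at percentile 1.99, and at percentile 11.1 for width among H3K4me3 peaks. No H3K27ac was called in its window of 137949 bp. Lepr is a defining marker of the adult marrow stroma, but it was not among the markers of the sort.

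Pdgfra (chromosome 5, 75152292 to 75198215, plus strand) carried both marks on the same interval of 9 kb from 75149001 to 75158000, over the start and exon 1. For H3K4me3 this width was at percentile 99.5. A second H3K27ac interval of 10.5 kb (75178501 to 75189000) covered exons 13 to 19 of 23, with scores of 101 in hypoxia and 102 in normoxia (percentiles 44.4 and 49.9). At the start the scores were 126 and 126 (percentiles 58.5 and 64.5). All intervals were called at both oxygen levels. Pdgfra and Ly6a encode the markers of the sort, and both carried H3K27ac at the start.

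Pdgfrb (chromosome 18, 61045150 to 61085061, plus strand) had the largest H3K27ac cover of the 10 genes. A peak of 1.5 kb before the start, a peak of 5 kb over it with H3K4me3, and a peak of 44 kb that ran through exons 2 to 23 and on past the gene touched each other, and together they formed an unbroken stretch of 50.5 kb from 61043001 to 61093500 at both oxygen levels. This stretch was at percentile 99.1 of such stretches in hypoxia and 99.2 in normoxia. The peak over the start had the top score of 1000 in hypoxia and 113 in normoxia (percentiles 88.9 and 56.3), the peak before it 59 and 72 (percentiles 11.3 and 26.5), and the widest one 79 and 75 (percentiles 30.0 and 29.4).

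Thy1 (chromosome 9, 44043384 to 44048579, plus strand) was the other gene with a difference, and it had the opposite shape to Cxcl12. In hypoxia H3K27ac ran without a break for 11.5 kb, from 44039001 to 44050500. In normoxia the same stretch lacked the 3 kb in its middle, from 44042501 to 44045500, which held 2 of the 3 annotated starts and exon 1, so 8.5 kb were left in 2 pieces. H3K4me3 was called on exactly those 3 kb at both oxygen levels, with a score of 125 in each list (percentile 31.1). The hypoxia-only interval had an H3K27ac score of 55, at percentile 6.71 of its list. Its neighbours scored 125 in hypoxia and 78 in normoxia on the upstream side (percentiles 57.4 and 32.1), and 68 and 80 on the downstream side (percentiles 20.3 and 33.8). The upstream piece lay 884 bp from the start, and the downstream piece held the last start, which is how Thy1 counted as having H3K27ac at a start in normoxia. When a peak had to lie on the first start itself, a rule added after the calls were seen, 6 members and not 7 had H3K27ac in normoxia. Of the 589 hypoxia-only intervals, 27 (4.58%) had a normoxia peak touching each side, as this one did, and 3 of these carried H3K4me3.

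Ly6a (chromosome 15, 74994877 to 74998031, minus strand) was the member with H3K27ac and no H3K4me3. A single H3K27ac interval of 10.5 kb from 74988001 to 74998500 held the whole gene, its 5 annotated starts and 7345 bp outside the gene, with scores of 128 in hypoxia and 104 in normoxia (percentiles 61.1 and 51.2). Ly6a lies among closely related Ly6 genes, and reads of low mapping quality were not used for the calls according to the methods. How much of this interval can be mapped uniquely was not tested.

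Nes (chromosome 3, 87971078 to 87980451, plus strand) had an H3K4me3 interval of 2 kb at its start (87970501 to 87972500), with a score of 55 in both lists at percentile 1.25, and no H3K27ac at either oxygen level. The other peak in its window lay at the start of the neighbour Bcan. Nes and Lepr thus shared H3K4me3 peaks that were narrow and near the lowest score.

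Ebf3 (chromosome 7, 137193673 to 137314445, minus strand) was the member whose own start had the top H3K27ac score in both lists. Its start lay in an interval of 6.5 kb (137308501 to 137315000, exons 1 to 5 of 16) with an H3K27ac score of 1000 and an H3K4me3 score of 141 (percentile 83.9). A pair of further H3K4me3 intervals of 2.5 kb lay upstream, from 137315001 to 137317500 and from 137321001 to 137323500, both at both oxygen levels and without H3K27ac.

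Seen over the whole windows, H3K27ac was absent at Kitl, Lepr and Nes, the genes without it at a start. In hypoxia 7 of the 10 windows held an H3K27ac peak, against 55% of all protein-coding genes, so a window without one is common. H3K4me3 cover did not follow the groups. It was highest at Nes (13.1% at each oxygen level), whose window also held the peak at the start of Bcan. H3K27ac covered 15.97% of the bases in the 10 windows in hypoxia (95% Wilson interval over steps of 500 bp, 14.3 to 17.8) and 14.5% in normoxia (12.9 to 16.2), and H3K4me3 covered 6.07% at each oxygen level (5.03 to 7.32). These intervals cover counting error only, and neighbouring steps are not independent. By gene, H3K27ac cover in hypoxia ran from 0% at Kitl, Lepr and Nes through 4.04% at Ebf3 to 63.2% at Pdgfrb, with 22.7% at Pdgfra, 24.3% at Ly6a, 26.5% at Cxcl12, 29.3% at Vcam1 and 34.5% at Thy1 in between. The median was 23.5% over the members and 2.56% over all protein-coding genes in hypoxia, and 15.6% and 2.45% in normoxia. Cover was equal at both oxygen levels for 8 of the 10 genes. For Cxcl12 it was 26.5% in hypoxia and 8.52% in normoxia, and for Thy1 34.5% and 27.8%. Without the lowest-scoring 25% of each list the order of the oxygen levels turned, with 13.7% of the windows covered in hypoxia and 14.0% in normoxia.

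**Figure D2:**
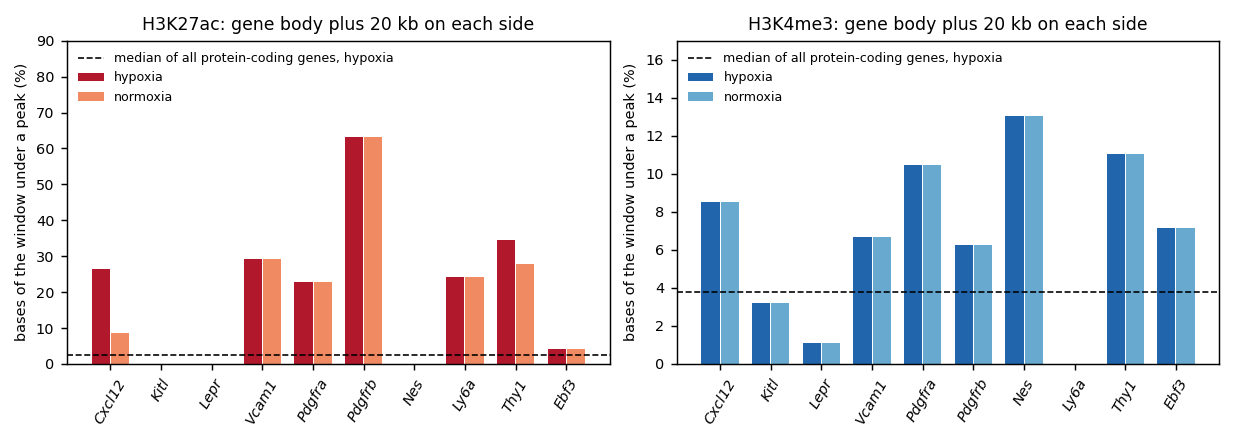
Share of each window (gene body plus 20 kb on each side) under a peak, in percent, for H3K27ac on the left and H3K4me3 on the right. Bars are single values from pooled lists and have no error, and the dashed line is the median of all protein-coding genes in hypoxia. Bars of the oxygen levels differ in height for H3K27ac at Cxcl12 (26.5% and 8.52%) and Thy1 (34.5% and 27.8%). The H3K4me3 bars of Nes and Thy1 include peaks at the starts of their neighbours Bcan and Usp2.

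The condition-specific calls were then counted over the windows. Hypoxia-only H3K27ac intervals were present at 2 of the 10 genes, Cxcl12 and Thy1, against 4.7% of all protein-coding genes. At Thy1 the interval lay within 1000 bp of a start (1 of 10, against 1.1%). Normoxia-only H3K27ac intervals were present at 0 of the 10, against 1.15%. With 10 genes a share of this size rests on 1 or 2 calls, both of low score, and the genes were named with these calls known, so nothing is read from it. Both calls were lost when the lowest-scoring 25% of each list was left out, after which 1 gene (Vcam1) had a hypoxia-only and 2 genes (Pdgfrb and Thy1) had a normoxia-only interval. Condition-specific H3K4me3 was called at none of the 10 genes, against 0.0638% of all protein-coding genes. The whole data set held 6 hypoxia-only and 3 normoxia-only H3K4me3 intervals, so their absence here says little about these genes. The nearest hypoxia-only H3K27ac intervals of the other members lay 52.1 kb from Nes, 131 kb from Pdgfrb, 151 kb from Vcam1, 480 kb from Ebf3 and over 1000 kb from Ly6a, Pdgfra, Kitl and Lepr. The median distance over all genes was 985 kb.

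The length of the H3K27ac stretches at the starts, with touching intervals joined and separate stretches of a gene summed, could be compared at the 7 genes that had one. It was longer in hypoxia at 2 of these, against 3.12% of the 8103 genes with a stretch in both lists, and longer in normoxia at 0, against 0.839%. The differences, 9500 bp at Cxcl12 and 3000 bp at Thy1, are the widths of the hypoxia-only intervals already described, so they restate those calls and nothing is read from the shares. They rest on the same low scores. At Thy1 the normoxia value of 8.5 kb is the sum of separate stretches of 3.5 kb and 5 kb. The other 5 genes had the same length at both oxygen levels. The median was 11500 bp over the 7 members and 3500 bp over all genes with a stretch in hypoxia, and 9000 bp and 3500 bp in normoxia.

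**Figure D3:**
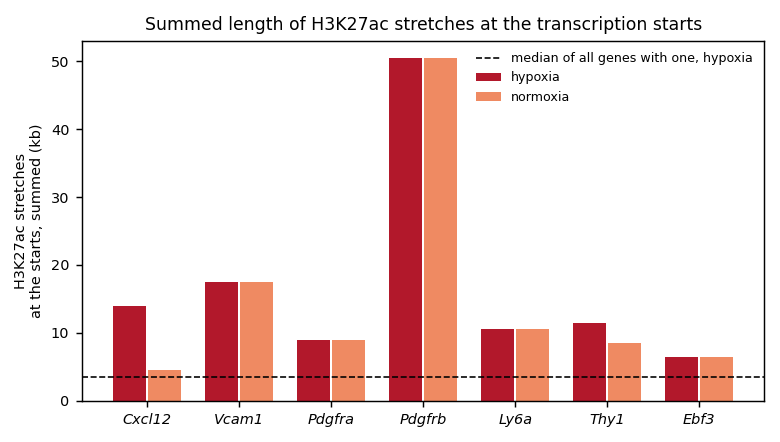
Length of H3K27ac stretches at the transcription starts in kb, with touching intervals joined and the stretches of a gene summed, for the 7 genes that had one. Bars are single values with no error, and the dashed line is the median of all genes with such a stretch in hypoxia, 3.5 kb. At Cxcl12 the bars are 14 kb and 4.5 kb, at Thy1 11.5 kb and 8.5 kb (the latter in 2 pieces), and at the other genes they are equal.

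Scores at the 14 H3K27ac intervals called at both oxygen levels showed no common direction. At 2 of them, the Ebf3 start and the interval at the edge of the Thy1 window, the score was 1000 in both lists. Among the other 12, the percentile was higher in hypoxia at 6, against 36.8% of the 12039 shared intervals of this kind. Fewer intervals stood at 1000 in normoxia (2802, against 3379 in hypoxia), so an equal score can rank higher there. The Pdgfra start, with 126 in both lists, thus counted as higher in normoxia. The widest gaps were at the Vcam1 gene body (higher in normoxia) and at the starts of Pdgfrb and Vcam1 and the upstream piece at Thy1 (higher in hypoxia). The spread of the score between replicates is unknown, so these gaps cannot be set against an error.

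**Figure D4:**
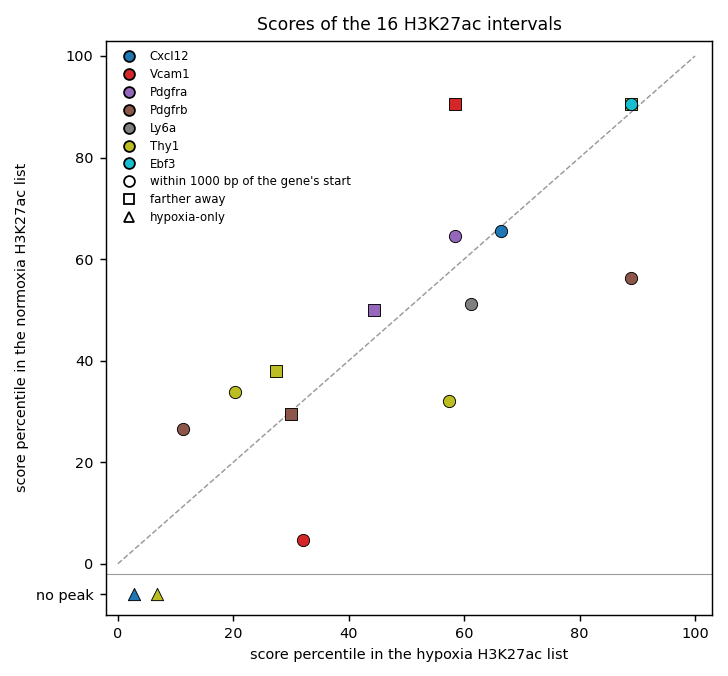
Percentile of the score within the hypoxia list (x axis) and the normoxia list (y axis) for the 16 H3K27ac intervals of the 10 windows, coloured by gene. At the top right a Thy1 square lies under the Ebf3 circle. Circles lie within 1000 bp of a start of the gene, squares lie farther away, triangles at the bottom have no normoxia peak, and the dashed line marks equal percentiles. The triangles of Cxcl12 and Thy1 sit at percentiles 2.81 and 6.71, and the Vcam1 gene body sits at 58.5 and 90.6.

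The window of 20000 bp decided a few neighbours. The farthest interval inside it was the H3K27ac interval of 15 kb at Usp2, 19.9 kb past the end of Thy1, and the nearest one outside was an H3K27ac interval of 5.5 kb near a start of Csf1r, 20.4 kb past the end of Pdgfrb. Neither is condition-specific.

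The wider niche network was read from 4 further lists, written from general knowledge. None of their genes is one of the 10. The shares over all genes to read them against are 37.6% for H3K27ac and 58.9% for H3K4me3 at a start in hypoxia, and 4.7% for a hypoxia-only and 1.15% for a normoxia-only interval in the window. Among 16 other niche factors, 8 had H3K27ac and 13 had H3K4me3 at a start at each oxygen level. Angpt1, Bmp6, Cxcl14, Grem1 and Il7 had H3K4me3 without H3K27ac, as Kitl did, and Dkk1 had neither. Jag1, a Notch ligand, held the only condition-specific interval of this list, a normoxia-only interval of 9000 bp within the gene (chromosome 2, 137104001 to 137113000), with a score of 51. Among 16 receptors and partner ligands, 4 had H3K27ac and 11 had H3K4me3. Ackr3 and Cxcr4 (receptors of CXCL12), Kit, Itga4 and Flt3 had H3K4me3 alone, and Il7r had neither mark. Csf1r, the receptor for colony-stimulating factor 1 that lies beside Pdgfrb, had H3K27ac at a start and no H3K4me3.

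Among 12 stromal regulators, 7 had H3K27ac and 10 had H3K4me3 at a start. Ebf2, Gli1 and Twist2 had H3K4me3 alone, and Meox1 and Tcf21 had neither. Hypoxia-only intervals lay at 2 of them. Ebf1, a relative of Ebf3, held one of 6000 bp within the gene (chromosome 11, 44721501 to 44727500, score 66). Prrx2, a homeobox gene of limb mesenchyme, had 3, of which the one at its start (chromosome 2, 30829001 to 30837000, score 60) spanned 8000 bp, and the scores of the others were 51 and 50. Among 14 further stromal surface markers, 11 had H3K4me3 at each oxygen level, and 3 had H3K27ac in hypoxia and 2 in normoxia. Cspg4, the NG2 proteoglycan of pericytes, made the difference, with a hypoxia-only interval of 4000 bp at a start (chromosome 9, 56864501 to 56868500, score 51). Alcam, Cd200, Cd34 and Eng had H3K4me3 alone, and Bst1 and Fap had neither.

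The labelled cell type was checked with lists of markers. The share of all protein-coding genes with H3K27ac at a start was 37.6% in hypoxia and 37% in normoxia. H3K27ac was called at a start of 9 of 10 stromal markers at each oxygen level, Pdpn being the exception, and at 1 of 10 haematopoietic markers (Cd68). Ptprc, which encodes the CD45 protein used to exclude blood cells, had neither mark at its start. H3K27ac was called at 0 of 7 endothelial and 0 of 6 osteoblast and osteocyte markers. In the adipocyte and the pericyte lists it was called at 2 of 5 and 2 of 6 in hypoxia and at 1 in each in normoxia, the difference being Pparg and Cspg4. Hypoxia-only H3K27ac intervals also lay in the windows of Alpl (osteoblast list) and Cd79a (haematopoietic list), away from their starts. Among the 10 genes, both positive markers of the sort carried H3K27ac at the start, whereas Lepr and Nes did not.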

How the data were processed

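ChIP-seq of H3K27ac and H3K4me3 was carried out by the authors on MSCs at 2% and 21% oxygen. According to the methods and the submitters' processing notes, reads were mapped to mm10 with Bowtie2 and duplicates were removed with Picard. Peaks were then called by chromstaR in its differential mode, hypoxia against normoxia, in steps of 500 bp with wider bins (versions not given in the sources used here). The deposited lists (1 per mark and oxygen level, 4 in all) hold intervals and a score, whose definition is not stated. The 4 input libraries have no list of their own. Intervals of different lists were either identical or apart, so the lists form a single segmentation.

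The score was turned into a percentile within its list, with ties at their mid rank. An interval was hypoxia-only or normoxia-only when the other list of that mark shared no base with it. Genes and starts came from GENCODE M21 basic (mm10), with 21938 protein-coding genes as the background, and exon numbers from the main transcript. Promoter sequences came from RefSeq. Python 3.11.15 was used, and the interval functions were tested on simulated data. Named genes were the 10 members, listed genes with a condition-specific interval, up to 6 per list without H3K27ac at a start in alphabetical order, and genes with starts at described peaks. Any other gene was named with its values in view. The members and lists were chosen with earlier results of these data known. Alternatives were other flanks, start rules, score limits, overlap rules and joining of peaks.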

Additional observations from a re-analysis of the deposited data

How the results depend on the processing

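No paired analysis was possible because the 2 libraries of a group are pooled in a single list without replicate numbers, and for the same reason no replicate could be left out. Of 76 values recomputed for 17 results, 59 stayed within their limits (1.5-fold for counts, the 95% Wilson interval for cover) and 17 moved. Requiring 50% of a peak to be covered changed nothing, since overlapping intervals were identical, and says nothing about stability. The counts of genes with condition-specific H3K4me3 stayed at 0 in every setting. With 6 hypoxia-only and 3 normoxia-only such intervals in the whole data set, they could hardly move. Both kinds of value are among the 59, so that total overstates stability. The counts of starts with each mark stayed within 1.5-fold throughout, but not the genes behind them. Without the lowest-scoring 25% of each list, Lepr and Nes lost H3K4me3 and Vcam1 lost H3K27ac in normoxia alone.

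The hypoxia-only calls at Cxcl12 and Thy1 rest on the lowest scores and on borders with shared peaks. Without the lowest-scoring 25% of both lists, 1 gene (Vcam1, through its start) had a hypoxia-only and 2 genes (Pdgfrb and Thy1) a normoxia-only interval, because a peak kept in 1 list then lost its counterpart in the other. Leaving those peaks out of the counted list alone, an alternative chosen after seeing the data, gave 0, and so did allowing no normoxia peak within 1000 bp. The nearest condition-specific interval was then 89134 bp from Cxcl12 in the first case and 1806035 bp in the last, and the main one lay 3466 bp from the gene's start. H3K27ac cover was 23.1% and 20.8% (hypoxia and normoxia) with flanks of 5000 bp, 11.8% and 10.9% with 50000 bp, and 13.7% and 14.0% without the low scores, which turned the order of the oxygen levels. H3K4me3 cover was 7.78% and 4.38% with these flanks at both oxygen levels. Joining peaks within 1000 bp left 10 H3K27ac peaks in hypoxia and 11 in normoxia, against 16 and 14 before, which also turned their order.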
